A study of Mus musculus with 6 samples.

Results

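Expression of 35 genes of glycolysis and of the cellular response to low oxygen was followed in cultured mouse lung fibroblasts that lacked Mmp19, a secreted matrix metalloproteinase, and in wild-type fibroblasts. They were chosen by name, with earlier results of these data known. The genes comprised 16 glycolytic enzymes, 5 genes of nutrient transport and flux control, 6 components of oxygen sensing and 8 other targets of the hypoxia-inducible factors (HIF). Each had at least 1 probe on the array and together they had 60. To be tested, a probe had to exceed background clearly on every array of the knockout or of the wild type, which left 57 probes and 34 of the 35 genes, among 12470 tested genes in all. The gene left untested was Car9, and 33 of the 35 were well above background on all 6 arrays.

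All mice, of both genotypes, had received 0.08 units of bleomycin into the trachea, a lung-injuring agent used to provoke fibrosis. Fibroblasts were isolated on day 21 and their cultures were incubated for 72 hours. The design thus held 1 comparison, Mmp19 knockout against wild type, with 3 one-colour Agilent arrays per group, and no arrays of uninjured lungs and no culture labelled as low in oxygen were analysed here. The labels give all animals as females of 11 weeks, and the strain, the number of animals behind a culture and the way in which the knockout was made are not stated in the labels. The series text speaks of independent experiments, 3 of which were used for arrays. Whether these shared animals or culture steps is not stated, so the p-values measure the spread between these 6 cultures.

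In glycolysis, glucose enters through transporters such as Slc2a1, is split and oxidised by a chain of cytosolic enzymes to pyruvate, and is then either passed to the mitochondria or reduced to lactate and exported. When oxygen is plentiful, prolyl hydroxylases (Egln genes) mark HIF alpha subunits for destruction by the ubiquitin ligase that contains Vhl. When it is scarce, the alpha subunit pairs with Arnt and binds a short DNA core, and its targets include most glycolytic enzymes as well as genes of mitophagy, pH control and blood flow. Fibroblasts of fibrotic lung are known for active glycolysis. The genes below are ordered by these roles.

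The binding core of HIF is a short motif, and it was searched as ACGTG or GCGTG on both strands in RefSeq promoters of build GRCm38.p6, which run from 250 bases before to 50 bases after a gene's start. A palindromic CACGTG counts as 2 overlapping matches. Of the 35 genes 31 were matched to 44 promoters, and Epas1, Ndufa4l2, Bnip3l and Ndrg1 were not matched. At least 1 match was present for 27 of the 31 genes (87.1%), against 46.7% of all 27025 genes, and in 35 of the 44 promoters (79.5%), against 43.8% of all 32851 promoters of this length. By role, 13 of 16 glycolytic enzymes, 5 of 5 transport and flux control genes, 4 of 5 oxygen-sensing genes and 5 of 5 other HIF targets had one. The following promoters are printed because Bnip3 and Adm were the HIF targets with a matched promoter whose signal differed most between slides, Ldha held the most matches among the glycolytic enzymes and Tpi1 held none. Capitals mark the matches, each sequence is written 5′ to 3′ on the strand of its gene, and a match is a string of letters, not a measured binding site.
Bnip3, chr7:138909457-138909756, minus strand: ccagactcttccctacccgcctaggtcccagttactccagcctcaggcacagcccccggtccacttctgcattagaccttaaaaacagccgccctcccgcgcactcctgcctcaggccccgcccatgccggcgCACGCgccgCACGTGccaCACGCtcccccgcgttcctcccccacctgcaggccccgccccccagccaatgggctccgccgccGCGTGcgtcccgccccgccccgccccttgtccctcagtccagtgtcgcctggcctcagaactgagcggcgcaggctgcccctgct
Adm, chr7:110627407-110627706, plus strand: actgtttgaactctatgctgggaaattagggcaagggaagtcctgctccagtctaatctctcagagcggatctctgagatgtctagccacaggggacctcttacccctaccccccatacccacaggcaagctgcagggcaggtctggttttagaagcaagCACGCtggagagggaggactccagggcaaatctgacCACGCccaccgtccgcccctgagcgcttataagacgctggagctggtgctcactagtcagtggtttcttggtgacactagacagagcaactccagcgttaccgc
Ldha, chr7:46845554-46845853, plus strand: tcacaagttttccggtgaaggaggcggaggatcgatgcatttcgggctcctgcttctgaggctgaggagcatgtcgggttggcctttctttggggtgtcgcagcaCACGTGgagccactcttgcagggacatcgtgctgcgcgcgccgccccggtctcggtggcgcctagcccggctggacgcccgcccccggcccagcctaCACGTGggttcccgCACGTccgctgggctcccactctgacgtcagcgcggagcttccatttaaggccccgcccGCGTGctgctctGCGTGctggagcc
Tpi1, chr6:124814109-124814408, minus strand: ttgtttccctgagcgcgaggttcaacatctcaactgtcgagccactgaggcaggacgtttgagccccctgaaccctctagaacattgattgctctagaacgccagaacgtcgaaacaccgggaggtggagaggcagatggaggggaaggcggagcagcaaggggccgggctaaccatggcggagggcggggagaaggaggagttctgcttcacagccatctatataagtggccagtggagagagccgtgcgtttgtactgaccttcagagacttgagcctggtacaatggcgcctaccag
Bnip3 held 5 matches, at -117 to -35 from the start, Adm 2, at -90 to -54, and Ldha 7, at -145 to +37. Both Ldha and Bnip3 held the palindrome, whereas the matches of Adm were single.

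The labels were checked before any result. Mmp19 signal cleared background on 0 of 3 knockout arrays and 3 of 3 wild-type arrays, and the knockout level was at least 5.33-fold below the wild type (limma, adjusted p = 0.016). That bound sets the wild-type mean against the mean detection limit of the knockout arrays. The labelled sex did not match the arrays: Xist cleared background on 3 of 3 knockout and 0 of 3 wild-type arrays, with knockout levels at least 7.41-fold above the wild type (limma, adjusted p = 0.00323), while signals of the Y-linked Eif2s3y and Ddx3y cleared background on all 6. The Y-linked levels varied within the knockout. Normalized log2 signals of Eif2s3y were 2.19, -1.77 and 0.67 on knockout arrays 1, 2 and 3. On wild-type arrays 1, 2 and 3 they were 2.92, 4.18 and 3.62. Ddx3y had the same order within the knockout, at 0.02, -3.26 and -0.99, against a wild-type mean of 1.07. A difference in sex between the groups, or mixed cultures, therefore cannot be told apart from genotype in any value that follows. The fibroblast markers Col1a1, Col1a2, Col3a1, Pdgfra, Pdgfrb, Thy1, Vim, Dcn, Lum and Fn1 were all tested, and 2 of the 10, Col1a1 and Col1a2, rose in the knockout, at adjusted p = 0.0307 and 0.0415 (limma), or 0.0845 and 0.0944 with slide as a block. The epithelial marker Epcam was not well above background on any array. In contrast, Cdh1, Krt18, Sftpc and Scgb1a1 were on all 6, and Krt8 on 3 knockout and 2 wild-type arrays. Sftpc was the brightest of these, with normalized log2 signals between 4.48 and 5.45. The share of spots that cleared background was lowest on knockout replicate 1 (43.1%) and wild-type replicate 2 (44.6%). On the other arrays it was between 48.7% and 54.5%. Having 3 arrays per group limits the precision. Wild-type replicate 2 correlated with the other wild-type arrays at 0.939 and 0.960, against 0.984 between those, and knockout replicate 1 correlated with its group at 0.958 and 0.980, against 0.986. The 3 slides each carried a knockout and a wild-type array with the same replicate number.

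Of the 34 tested genes 1, Ndrg1, passed the threshold of adjusted p under 0.05 (limma, Benjamini-Hochberg over all 24214 probes tested), and it was higher in the knockout. That is 2.94% of the genes, against 4.80% of all genes tested in either direction and 3.30% in the higher direction. At an unadjusted p under 0.05 (limma) there were 4 of the 34 (Ndrg1, Vhl, Egln1 and Pfkfb3), or 11.8%, against 21.8% of all genes. Egln1 among them met the filter only through the knockout arrays, where it was higher. Of the 34 changes 24 were positive (70.6%, against 56.3% of all genes), with a median of 0.41 on the log2 scale against 0.08 over all genes. Here and below a change is the knockout mean minus the wild-type mean of the normalized log2 signal, 1 unit being a 2-fold difference, and its error is the standard error of the fit with 3 arrays per group. The spread between replicates was wide: for 10 of the 34 genes the 95% interval of the change lay within 1 log2 unit of 0, and 6 of these were glycolytic enzymes. For the other 24 a 2-fold difference in at least 1 direction was inside the interval, so the lack of a call does not show equal expression. These intervals are those of each gene's brightest tested probe. Among the 10, dimmer probes of Hk1, Pfkp, Gapdh, Ldha, Epas1 and Bnip3l had intervals that reached beyond 1 log2 unit. In RNA of whole cultures, fewer cells of a type and less RNA per cell cannot be told apart.

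**Figure D1:**
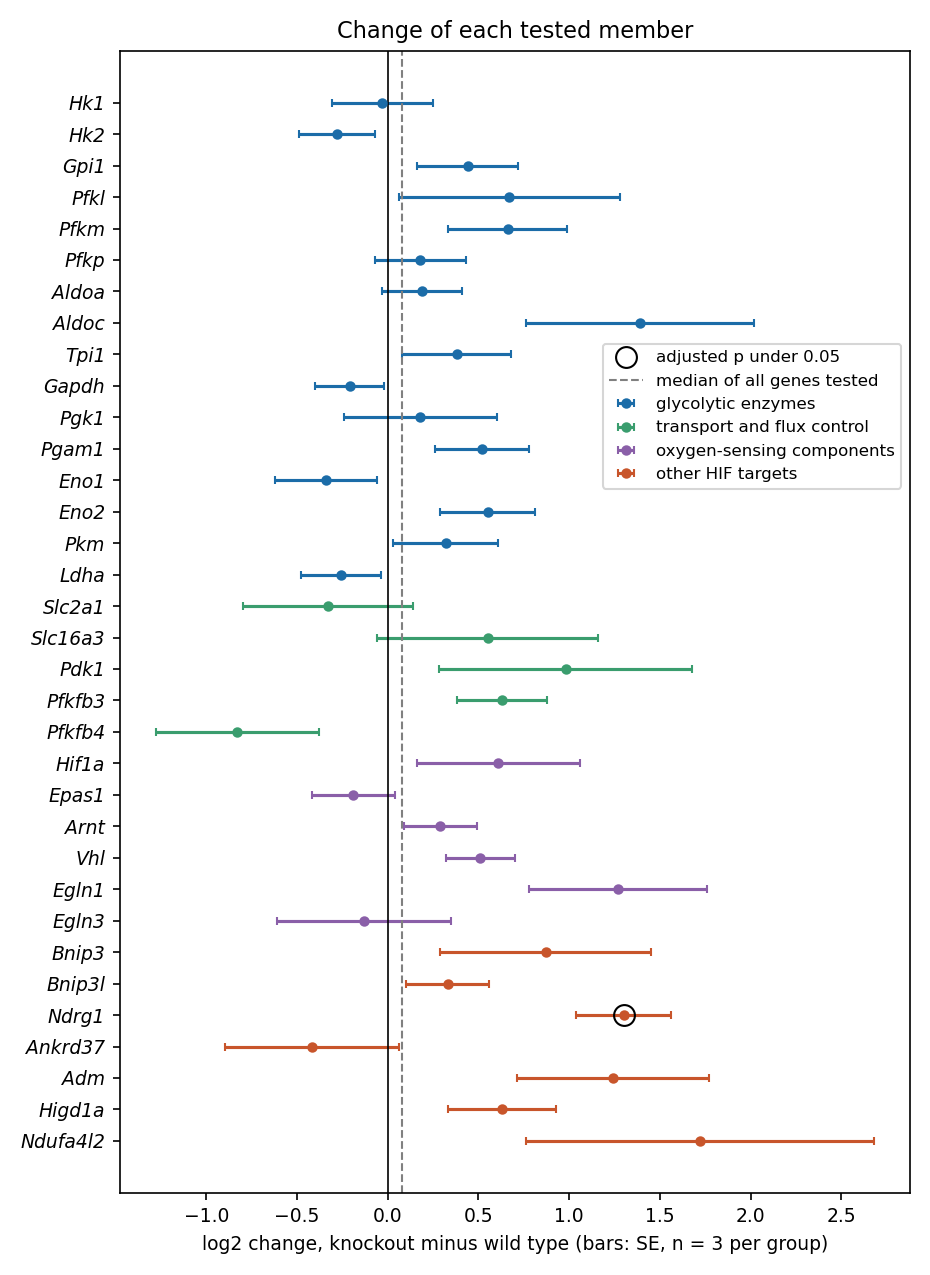
Log2 change of each of the 34 tested genes (horizontal axis, knockout minus wild type, points with SE bars, n = 3 per group), coloured by role; the ringed point passed the threshold and the dashed line is the median of all genes tested, 0.08. Ndrg1 was the gene past the threshold, and Ndufa4l2 had the largest change, 1.72, with an SE of 0.96.

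Ndrg1, a stress-responsive gene induced by low oxygen, had normalized log2 signals of 3.12, 3.58 and 3.30 on knockout arrays 1, 2 and 3 and of 2.26, 1.60 and 2.24 on wild-type arrays 1, 2 and 3. All knockout arrays lay above all wild-type arrays. Its mean was 3.33 ± 0.23 (SD, n = 3) in the knockout and 2.03 ± 0.38 (SD, n = 3) in the wild type, a change of 1.30 ± 0.26, or 2.46-fold, with a 95% interval of 0.68 to 1.92 (limma, adjusted p = 0.0436). Within slides 1, 2 and 3 the difference was 0.86, 1.98 and 1.06. The call was close to the threshold. With the replicate number as a block, which here is the slide, its adjusted p was 0.114 and 0 of the 34 genes passed, against 1.80% of all genes, while 2 were at an unadjusted p under 0.05. Leaving out single arrays gave adjusted p = 0.0423 without wild-type replicate 2 and between 0.0812 and 0.18 without any of the other 5, and the change ranged from 1.08 to 1.42.

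Among the 16 glycolytic enzymes 0 passed the threshold, and 0 were at an unadjusted p under 0.05 (limma), against 21.8% of all genes. There were 11 positive (68.8%, against 56.3% of all genes) and 5 negative changes, with a median of 0.26. The entry step is catalysed by the hexokinases. Hk1 differed by -0.03 ± 0.28 (adjusted p = 0.966), and its knockout arrays (4.37, 5.33 and 4.73) lay on both sides of the wild-type arrays (4.75, 4.86 and 4.92). A dimmer Hk1 probe differed by 0.74 ± 0.44 (limma, adjusted p = 0.386). Hk2, the inducible form, had signals of 4.58, 5.01 and 4.83 in the knockout and 5.01, 5.03 and 5.21 in the wild type. It was the only one of the 34 genes whose knockout arrays all lay below the wild-type arrays (2.94%, against 9.82% of all genes), but knockout replicate 2 and wild-type replicate 1 were equal after rounding and the change of -0.28 ± 0.21 was not called (adjusted p = 0.478).

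Gpi1, the isomerase that feeds phosphofructokinase, had a change of 0.44 ± 0.28. The 3 phosphofructokinase genes, whose product is the main point of control in the pathway, differed in how they varied. Pfkm stood at 2.47, 2.75 and 2.72 in the knockout and at 2.40, 1.30 and 2.28 in the wild type, so the groups did not overlap, yet the nearest arrays were 0.07 apart on slide 1. Its change was 0.66 ± 0.33 (adjusted p = 0.301). Pfkl, the liver-type form, had a change of similar size, 0.67 ± 0.61, which rested on wild-type replicate 2, at 1.10 against 3.31 and 3.15 on the other wild-type arrays. Without that array the change was -0.04. Pfkp, the platelet-type form, changed by 0.18 ± 0.25.

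The aldolases split the sugar into its 3-carbon products. Aldoa had a change of 0.19 ± 0.22, with all arrays between 8.39 and 8.97. Aldoc, the form best known from brain and a HIF target, stood at 0.35, 2.85 and 1.92 in the knockout and at 0.83, -0.24 and 0.36 in the wild type. Knockout replicates 2 and 3 were above every wild-type array and knockout replicate 1 was inside the wild-type range. The change of 1.39 ± 0.63 was the largest of the glycolytic enzymes and was not called (adjusted p = 0.263, 0.334 with the block), and it was 2.07 without knockout replicate 1 and 0.82 without knockout replicate 2. Tpi1, the triose phosphate isomerase, differed by 0.38 ± 0.30.

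In the lower part of the pathway, the enzymes from Gapdh to Ldha also had overlapping groups, except for Eno2. Gapdh, the dehydrogenase often used as a loading control, had signals of 9.14, 9.38 and 9.47 in the knockout and 9.61, 9.54 and 9.46 in the wild type. Its change of -0.21 ± 0.19 at this brightest probe was not called (limma, adjusted p = 0.579), with a 95% interval of -0.67 to 0.25. Of its 7 tested probes 5 had positive changes. Pgk1, the first enzyme to yield ATP, had a change of 0.18 ± 0.42. Its differences within slides 1, 2 and 3 were -1.01, 1.31 and 0.25, so the small mean change averaged opposite values, and it was -0.18 without wild-type replicate 2 and -0.02 without knockout replicate 2. Pgam1, the phosphoglycerate mutase, had a change of 0.52 ± 0.26, and Pkm, the pyruvate kinase, 0.32 ± 0.29.

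The enolases differed in sign. Eno1, the widely expressed form, stood at 6.52, 7.48 and 7.09 in the knockout and at 7.53, 7.19 and 7.41 in the wild type, a change of -0.34 ± 0.28 (adjusted p = 0.531). Eno2, known as the neuronal form, stood at 2.92, 2.66 and 2.54 in the knockout and at 2.46, 1.74 and 2.29 in the wild type. Its groups did not overlap and the change was 0.55 ± 0.26 (adjusted p = 0.279). Ldha, which reduces pyruvate to lactate, stood at 9.12, 9.49 and 9.56 in the knockout and 9.83, 9.54 and 9.57 in the wild type. Knockout replicate 1 was the lowest array and wild-type replicate 1 the highest, and the change of -0.26 ± 0.22 was not called (adjusted p = 0.534). Many of these enzymes, Gapdh and Ldha among them, have near-identical processed copies in the mouse genome, so the source of their signal is uncertain to that extent.

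Of the 5 transport and flux control genes 0 passed the threshold and 1, Pfkfb3, was at an unadjusted p under 0.05, with a median change of 0.55. The transporters varied widely between arrays. Slc2a1, the main glucose transporter of proliferating cells, stood at 4.50, 6.28 and 5.18 in the knockout and at 5.98, 5.19 and 5.76 in the wild type. Slc16a3, the lactate exporter, stood at 3.95, 6.19 and 5.38 in the knockout and at 5.13, 3.82 and 4.94 in the wild type. For both genes the groups overlapped, knockout replicate 2 being the highest of the 6 arrays and knockout replicate 1 below 2 or more of the wild-type arrays. Their changes were -0.33 ± 0.47 and 0.55 ± 0.61 (adjusted p = 0.733 and 0.651). That of Slc2a1 was 0.08 without knockout replicate 1 and -0.81 without knockout replicate 2. That of Slc16a3 was 1.16 and 0.04 without the same arrays, and 0.14 without wild-type replicate 2.

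Pdk1, a kinase that inhibits pyruvate dehydrogenase, had a change of 0.98 ± 0.70 (limma, adjusted p = 0.462). Its signals were 0.47, 1.53 and 1.09 in the knockout and 1.11, -1.58 and 0.63 in the wild type. Wild-type replicate 2 stood far below the rest, and without it the change was 0.16. Pfkfb3 and Pfkfb4 make and remove the activator of phosphofructokinase. Pfkfb3 stood at 2.58, 3.22 and 2.83 in the knockout and at 2.38, 1.97 and 2.40 in the wild type. Its groups did not overlap, and the change of 0.63 ± 0.25 was not called (adjusted p = 0.213, 0.287 with the block). Pfkfb4 had the opposite sign, with signals of 0.82, 1.22 and 0.81 in the knockout and 0.79, 2.57 and 1.97 in the wild type. Wild-type replicate 1 lay with the knockout arrays, and the change of -0.83 ± 0.45 was not called (adjusted p = 0.339).

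The oxygen-sensing components had 0 of 6 past the threshold, with a median change of 0.40. At an unadjusted p under 0.05 (limma) there were 2, Vhl and Egln1 (33.3%, against 21.8% of all genes). Egln1 met the filter only through the knockout arrays, where it was higher, so this count depends on the filter. Hif1a, the alpha subunit regulated mainly through its protein, had signals of 3.37, 4.87 and 3.82 in the knockout and 3.76, 2.78 and 3.68 in the wild type, a change of 0.61 ± 0.45 (adjusted p = 0.478). The groups overlapped, since knockout replicate 1 lay below 2 of the wild-type arrays. Epas1, which encodes the second alpha subunit, HIF-2 alpha, had a change of -0.19 ± 0.23 at its brightest probe. Arnt, their partner, stood at 3.35, 3.07 and 3.13 in the knockout and at 2.75, 2.95 and 2.96 in the wild type, without overlap, and its change was 0.29 ± 0.20 (adjusted p = 0.431).

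Vhl and Egln1 act against HIF. Vhl, the substrate receptor of the ubiquitin ligase, stood at 3.66, 3.67 and 3.38 in the knockout and at 3.15, 2.98 and 3.08 in the wild type. All knockout arrays were above all wild-type arrays, and the change was 0.51 ± 0.19, which was not called (adjusted p = 0.197, 0.247 with the block). Egln1, the main oxygen-sensing prolyl hydroxylase, was dim and was not well above background on wild-type replicate 1. It was therefore tested through the knockout arrays, and its wild-type level is poorly measured. It stood at -1.75, -0.49 and -0.20 in the knockout and at -2.69, -2.13 and -1.43 in the wild type, so knockout replicate 1 was inside the wild-type range. The differences within slides 1, 2 and 3 were alike, at 0.94, 1.64 and 1.24, and the change of 1.27 ± 0.49 had adjusted p = 0.199, or 0.0837 with the block. Egln3, the hydroxylase gene that HIF itself induces, had a change of -0.13 ± 0.48, which ranged from -0.60 to 0.18 when single arrays were left out.

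**Figure D2:**
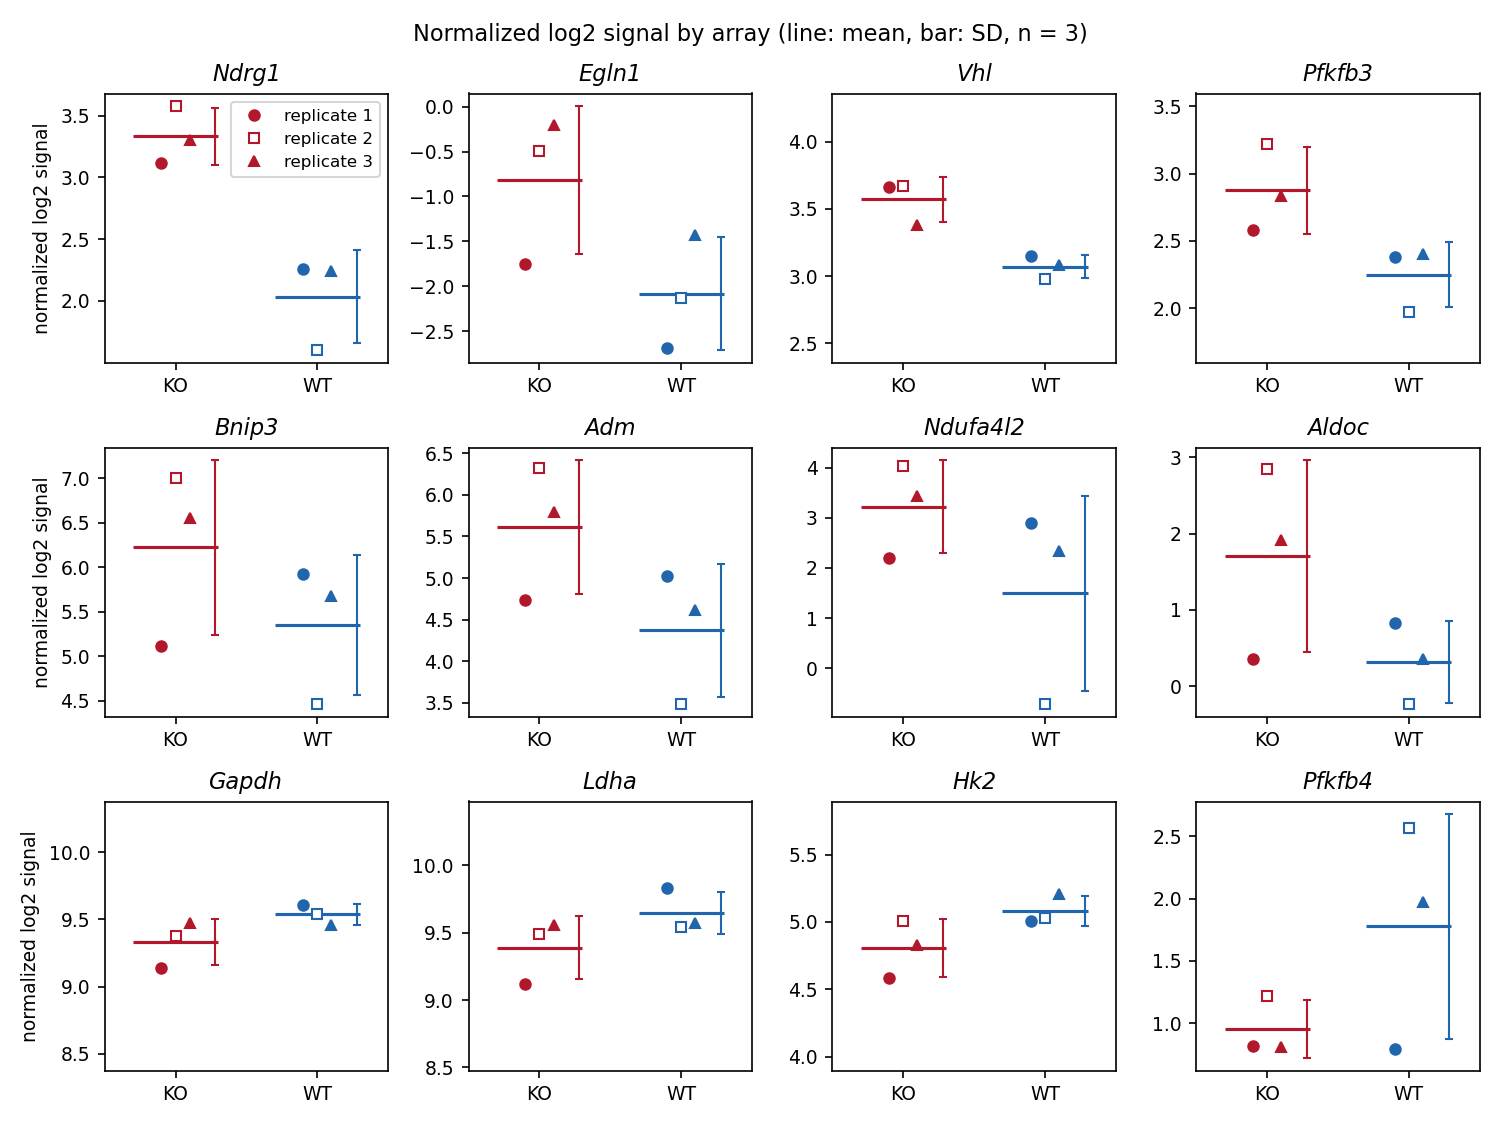
Normalized log2 signal (vertical axis, a separate scale for each gene) of 12 genes on each knockout (KO) and wild-type (WT) array; symbols give the replicate number, lines the means and bars the SD, n = 3. The groups do not overlap for Ndrg1, Vhl and Pfkfb3 and nearly touch for Hk2, whereas for Bnip3, Adm and Ndufa4l2 knockout replicate 1 lies below at least 1 wild-type array and wild-type replicate 2 is the lowest array.

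The other HIF targets had the highest median change of the 4 roles, 0.87 over 7 tested genes. Of these, 6 had positive changes (85.7%, against 56.3% of all genes). The threshold was passed by 1 of the 7, Ndrg1, and by 4.80% of all genes in either direction. Bnip3 and Bnip3l are mitophagy receptors. Bnip3 stood at 5.12, 7.00 and 6.55 in the knockout and at 5.92, 4.46 and 5.68 in the wild type. Knockout replicates 2 and 3 were above every wild-type array, replicate 1 was below 2 of them, and the change of 0.87 ± 0.58 was not called (adjusted p = 0.431). Bnip3l was steadier, with a change of 0.33 ± 0.23 and differences of 0.32, 0.52 and 0.16 within slides 1, 2 and 3.

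Adm encodes adrenomedullin, a vasodilator peptide. It stood at 4.73, 6.32 and 5.79 in the knockout and at 5.02, 3.48 and 4.62 in the wild type. Knockout replicate 1 was again inside the wild-type range, and the change of 1.24 ± 0.53 was not called (adjusted p = 0.244, 0.332 with the block). Ndufa4l2, a mitochondrial protein that lowers respiration in low oxygen, stood at 2.20, 4.03 and 3.44 in the knockout and at 2.89, -0.72 and 2.33 in the wild type. Its change was the largest of the 34, 1.72 ± 0.96 (adjusted p = 0.357), and it was 0.61 without wild-type replicate 2. Higd1a, a respiratory chain factor, was higher on each slide, by 0.26, 1.05 and 0.57, with a change of 0.63 ± 0.30 (adjusted p = 0.282).

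Ankrd37, an ankyrin repeat protein, was the HIF target with a negative change, -0.42 ± 0.48, or 0.12 without knockout replicate 1, and knockout replicate 1, at 0.08, was well below the other 5 arrays, which lay between 1.18 and 1.96. Car9, the cell-surface carbonic anhydrase often taken as a marker of hypoxia, was near background throughout. It was well above background on knockout replicates 2 and 3 and on wild-type replicate 3, and was not tested.

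**Figure D3:**
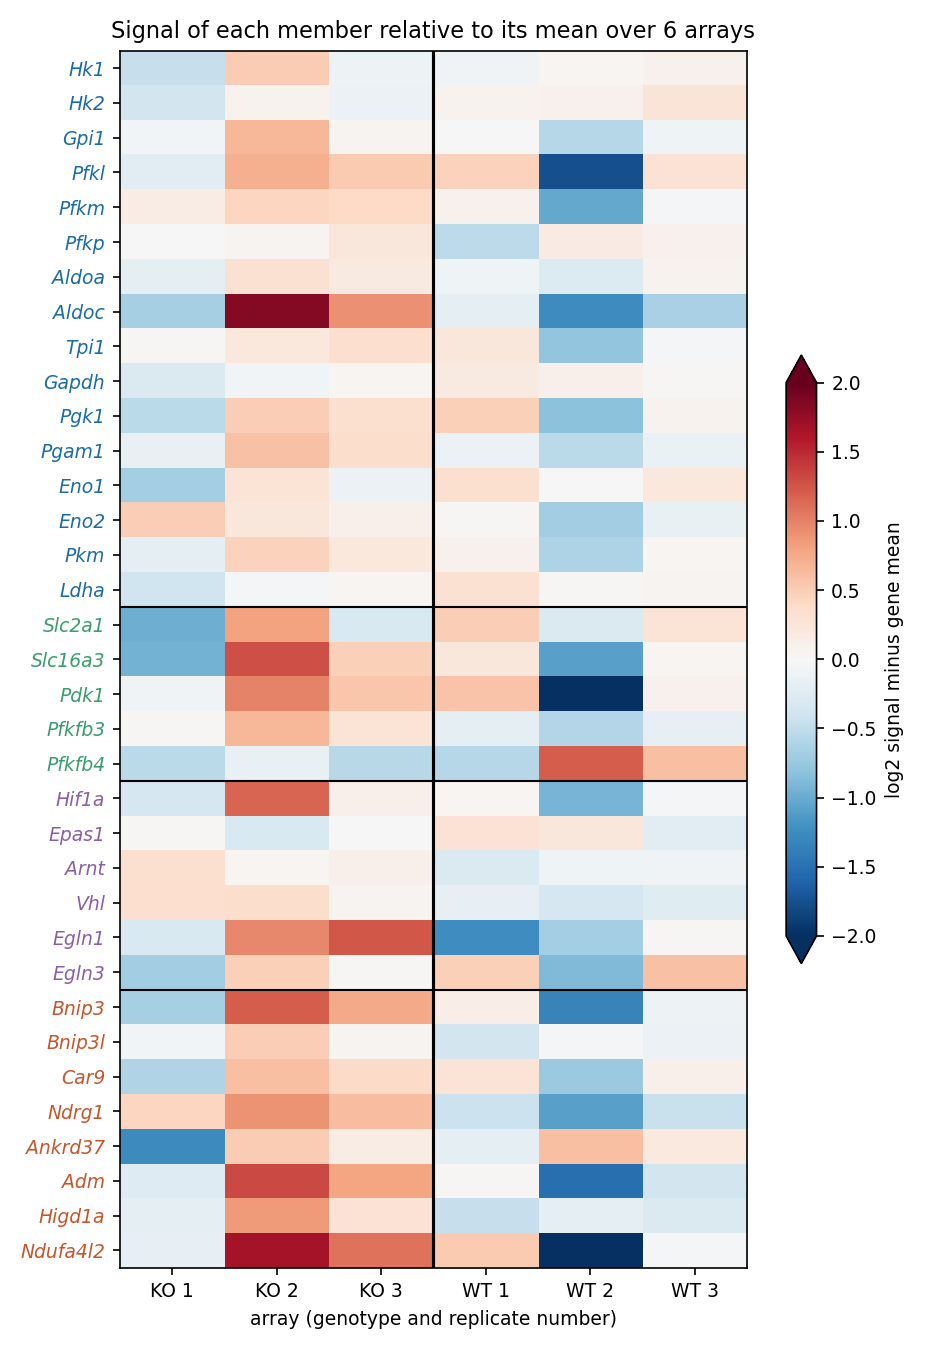
Normalized log2 signal of each of the 35 genes (rows, gene names coloured by role) on each array (columns), minus the gene's mean over the 6 arrays; red is above and blue below the mean, and the colour scale ends at 2 log2 units. Knockout replicate 1 is the lowest knockout array for 29 of the 34 tested genes, knockout replicate 2 the highest for 26, and wild-type replicate 2 the lowest wild-type array for 23.

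Many of the genes were low or high on the same arrays. Knockout replicate 1 was the lowest knockout array for 29 of the 34 genes (85.3%, against 49.3% of all genes), and knockout replicate 2 was the highest for 26 (76.5%, against 55.7%). Wild-type replicate 2 was the lowest wild-type array for 23 (67.6%, against 54.5%). The direction within slides therefore differed between slides 1, 2 and 3. The 2 arrays of a slide were not treated as pairs, and the part of the slide itself was not tested. On slide 1 the knockout array was higher for 11 of the 34 genes (32.4%, against 49.5% of all genes), on slide 2 for 27 (79.4%, against 68.8%) and on slide 3 for 26 (76.5%, against 47.7%). The median difference of the 34 genes was -0.29, 1.08 and 0.22 on slides 1, 2 and 3, against -0.01, 0.33 and -0.03 over all genes. Among the 34, 18 genes (52.9%) were lower in the knockout on slide 1 and higher on slide 2, which held for 32.2% of all genes. By rank the oxygen-sensing components did not share the pattern beyond the background: knockout replicate 1 was the lowest knockout array, knockout replicate 2 the highest and wild-type replicate 2 the lowest wild-type array for 3 of 6 genes each. By size they shared part of it. Relative to each gene's mean, their median was 0.41 on knockout replicate 2 and -0.51 on wild-type replicate 2, against 0.16 and -0.18 over all genes. Their median differences on slides 1, 2 and 3 were 0.12, 1.02 and 0.19. These shares and medians describe the genes and were not tested.

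Of the 34 genes 9 were higher in the knockout on every slide (26.5%, against 30.6% of all genes), namely Pfkm, Eno2, Pfkfb3, Arnt, Vhl, Egln1, Bnip3l, Ndrg1 and Higd1a. Of these, Egln1 was tested only through the knockout arrays. Another 3 of the 34 were lower on every slide, Hk2, Ldha and Ankrd37, as were 2030 of all 12470 genes tested. Of all 34, the knockout arrays lay entirely above the wild-type arrays for 6, Pfkm, Eno2, Pfkfb3, Arnt, Vhl and Ndrg1 (17.6%, against 21.2% of all genes). The genes that moved most between slides were Ndufa4l2, with differences of -0.70, 4.75 and 1.11, Pdk1, with -0.64, 3.11 and 0.46, Aldoc, with -0.48, 3.09 and 1.56, and Slc16a3, with -1.18, 2.38 and 0.44.

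Markers of other cell types and of proliferation also differed between arrays. The summed normalized signal of 6 proliferation genes (Mki67, Top2a, Ccnb1, Cdk1, Pcna and Mcm2), on a linear scale where 1 is an array's 75th percentile, was 36.3, 54.3 and 43.8 in the knockout and 95.3, 27.5 and 69.8 in the wild type. Wild-type replicate 2 was the lowest and wild-type replicate 1 the highest array, and the median difference within slides was -1.58, 1.68 and -0.74. Knockout replicate 1 was the lowest knockout array and wild-type replicate 2 the lowest wild-type array for 6 of these 6 genes, and knockout replicate 2 the highest knockout array for 5. The number of the 6 past the threshold was 0, and 0 were at an unadjusted p under 0.05 (limma). The summed signal of 6 mesothelial markers was 34.5, 85.2 and 58.1 in the knockout and 2.01, 9.33 and 5.78 in the wild type, and 5 of the 6 rose, or 4 with the block, where Lrrn4 had adjusted p = 0.0528 against 0.0454 (limma). Among the mesothelial markers that rose, Upk3b, Lrrn4 and Bnc1 were tested only through the knockout arrays, where they were higher. Of 5 tested epithelial markers 0 passed, with 1, Krt18, at an unadjusted p under 0.05 (adjusted p = 0.0941 in limma, but 0.0468 with the block, where it passed as higher), and the sum over the list was between 51.8 and 57.1 in the knockout and between 36.6 and 43.8 in the wild type. Of the 2 macrophage and 3 endothelial markers tested 0 passed (1 and 0 at an unadjusted p under 0.05), with sums of 9.41 to 15.0 and 2.97 to 4.20 in the knockout and of 4.93 to 9.84 and 3.22 to 4.61 in the wild type. The part of these cells or of proliferation in the values of the 35 genes was not tested. Nor was that of the Y-linked signal, which within the knockout was highest on replicate 1 and lowest on replicate 2.

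**Figure D4:**
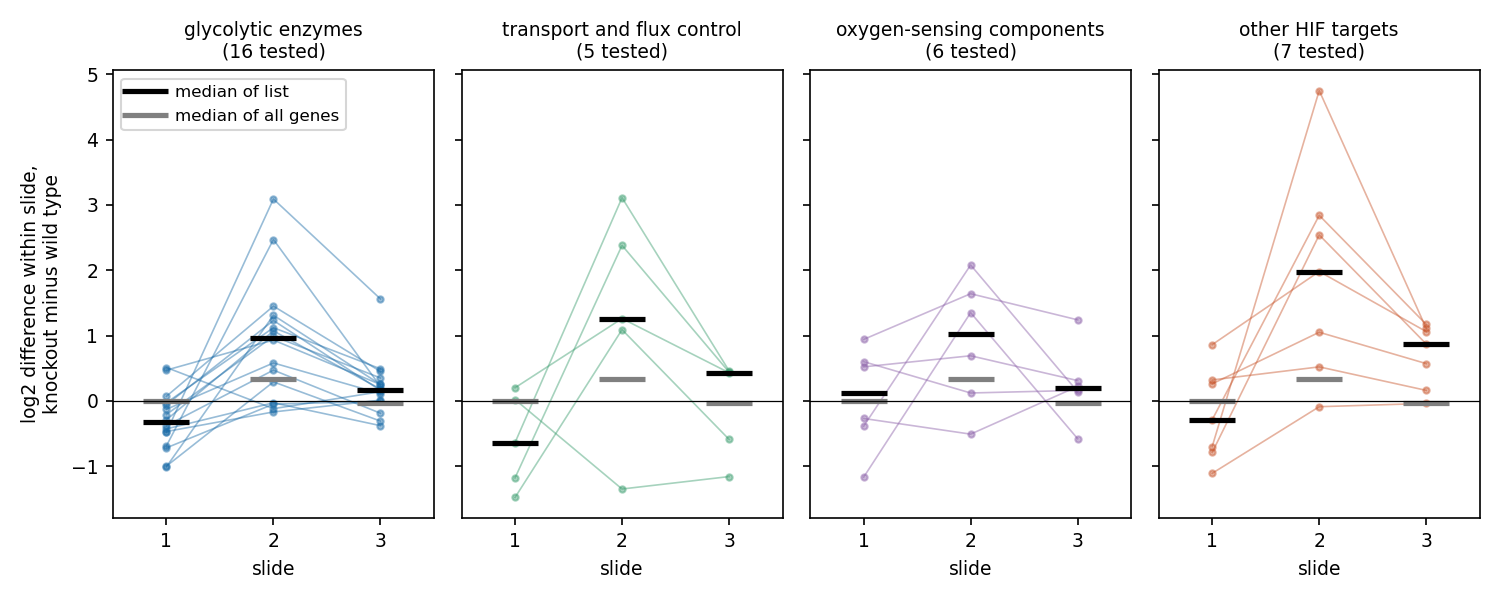
Difference between the 2 arrays of each slide (vertical axis, log2, knockout minus wild type), with 1 line per tested gene and a panel per role; black bars are the medians of the role and grey bars those of all genes. The medians of the other HIF targets were -0.29, 1.98 and 0.87 on slides 1, 2 and 3 and those of the glycolytic enzymes -0.33, 0.96 and 0.17.

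The glycolytic enzymes were then set against the other HIF targets. The median change was 0.26 for the 16 glycolytic enzymes and 0.87 for the 7 other HIF targets, a difference of -0.62 between the lists, which was not tested because the genes had been chosen with results known. On slides 1, 2 and 3 the lists differed by -0.04, -1.02 and -0.70, so on slide 1 they were nearly level. Relative to each gene's mean over the arrays, the median glycolytic enzyme was at -0.22, 0.37 and 0.20 on the knockout arrays and at 0.07, -0.55 and 0.04 on the wild-type arrays. The median HIF target was at -0.20, 0.90 and 0.61 on the knockout arrays and at -0.17, -1.08 and -0.11 on the wild-type arrays. Both lists were thus lowest on wild-type replicate 2 and highest on knockout replicate 2, with the wider swing among the HIF targets. The difference between the lists was -0.95 without knockout replicate 1 and -0.30 without knockout replicate 2. The median change itself was 0.09 for the glycolytic enzymes, 0.14 for transport and flux control, 0.31 for oxygen sensing and 0.61 for the HIF targets without wild-type replicate 2. Without knockout replicate 1 these medians were 0.45, 0.78, 0.33 and 1.41, and without knockout replicate 2 they were 0.18, 0.04, 0.27 and 0.49.

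Different probes of 1 gene did not always agree within a group. Of 12 genes with several tested probes, 5 had probes of both signs. Gapdh had 7 tested probes, with changes from -0.21 at the brightest to 0.64, of which 5 were positive and 2 negative. At the brightest Gapdh probe wild-type replicate 2 differed from the mean of the other wild-type arrays by 0.01, while at another probe it differed by -1.22. Ldha had 3 tested probes, with changes from -0.26 to 0.14, and there wild-type replicate 2 differed from the others by between -1.17 and -0.16. For Gpi1, whose probes ranged from -0.34 to 0.44, it was knockout replicate 1 that depended on the probe, at -2.42 to -0.42 from the other knockout arrays. The positions of these probes along the transcripts are not stated in the files.

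**Figure D5:**
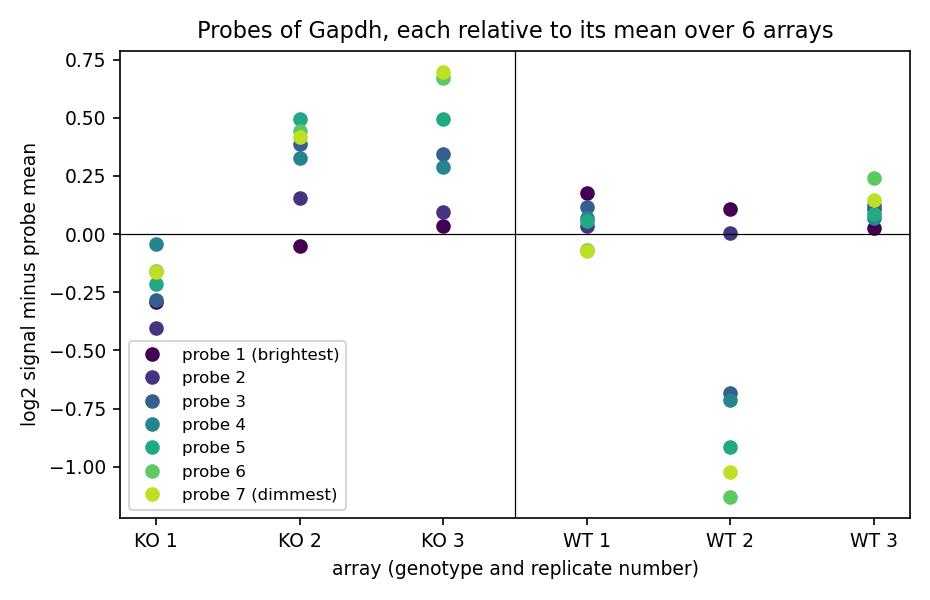
Normalized log2 signal of the 7 tested Gapdh probes on each array, minus the probe's mean over the 6 arrays, with probes numbered from the brightest to the dimmest. The probes spread widely on wild-type replicate 2, where the brightest lay 0.01 from the mean of the other wild-type arrays and the lowest -1.22.

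The probes of Epas1 had 1 sign and differed in size. The brightest changed by -0.19 (adjusted p = 0.681), the second by -0.85 (adjusted p = 0.242) and the dimmest by -1.17 (adjusted p = 0.0591, limma). Pfkp had a bright probe at 0.18 and a dim one at -1.23 (adjusted p = 0.0679). The 3 Bnip3 probes agreed, with changes between 0.77 and 0.87, and the 4 Bnip3l probes lay between 0.33 and 0.82. None of these probes passed the threshold.

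The other genes of the same pathways were taken as 3 lists. Over all genes 4.80% were called, 3.30% in the higher direction, and the median change was 0.08. Of 40 tested genes of glucose metabolism 2 rose and 1 fell, with a median change of 0.16. Slc2a3, the high-affinity glucose transporter, had signals of -0.80, 1.36 and 0.82 in the knockout and -2.34, -2.88 and -3.07 in the wild type. Its rise was 3.23 ± 0.55 (limma, adjusted p = 0.028). It was well above background on 2 of the 3 wild-type arrays, so it was tested through the knockout arrays and its wild-type level is poorly measured. All its knockout arrays lay above its wild-type arrays, unlike those of Slc2a1. Pdha1, the subunit of pyruvate dehydrogenase that Pdk1 phosphorylates, rose by 1.07 ± 0.19 (adjusted p = 0.0302), from between 2.45 and 2.63 on the wild-type arrays to between 3.49 and 3.72 on the knockout arrays. Gpd1, the cytosolic glycerol phosphate dehydrogenase, was lower, at -1.07 ± 0.19 (limma, adjusted p = 0.0303). It cleared background on 2 of the 3 knockout arrays, so it was tested through the wild-type arrays, where it was higher. With only probes well above background on all arrays, this list had 1 call in place of 3.

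Of 12 other genes of HIF regulation 0 passed the threshold, and the median change was 0.17. At an unadjusted p under 0.05 (limma) there were 2 (16.7%, against 21.8% of all genes). They were Eloc, a subunit of the Vhl ligase, at -0.75 ± 0.22 (adjusted p = 0.107), and Hif3a, an alpha subunit that can restrain HIF, at 1.36 ± 0.47 (adjusted p = 0.160). Hif3a cleared background on 1 of the 3 wild-type arrays, so it was tested through the knockout arrays and its wild-type level is poorly measured. A dimmer Eloc probe had the opposite sign, at 0.21 (adjusted p = 0.591). Of 26 further HIF targets 3 rose and 0 fell, with a median of 0.32. A dimmer probe of Tfrc, the transferrin receptor, passed in the lower direction, at -2.40 ± 0.48 (adjusted p = 0.0434, 0.104 with the block), whereas its brightest probe, at -0.97 ± 0.38, did not (adjusted p = 0.206). Bhlhe40, a transcriptional repressor, stood at 3.28, 3.87 and 3.53 in the knockout and at 1.83, 1.95 and 2.24 in the wild type, a rise of 1.55 ± 0.24 (adjusted p = 0.0218). The others were Lox, a collagen crosslinking oxidase, with a rise of 2.45 ± 0.45 (adjusted p = 0.0353), and P4ha1, a collagen prolyl hydroxylase subunit, with a rise of 1.69 ± 0.30 (adjusted p = 0.0316). With the replicate block 0 of these 6 called genes passed, at adjusted p = 0.0621 to 0.0872 (limma), and all 6 were at an unadjusted p of 0.00142 to 0.00421. Leaving out knockout replicate 2, knockout replicate 3 or wild-type replicate 3 alone ended all 6 calls. Without knockout replicate 1 the lists had 1 call in glucose metabolism and 2 among HIF genes, and without wild-type replicate 1 they had 1 and 1.

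Vegfa, the angiogenic growth factor and a HIF target named here after its values were seen, was not called, with signals of 3.88, 4.24 and 4.27 in the knockout and 4.34, 1.44 and 4.02 in the wild type (0.86 ± 0.73, adjusted p = 0.537). As for Pdk1 and Ndufa4l2, wild-type replicate 2 was the array far below the others.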

How the data were processed

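Total RNA of 6 fibroblast cultures was labelled with Cy3 from 0.5 µg and hybridised to one-colour arrays, per the labels' protocols. The deposited spot intensities came from Agilent Feature Extraction 10.7.3.1, which subtracts background, per the file headers; the submitters' processing notes name version 9.1. The authors also deposited log2 values for 35844 probes, whose column medians ran from 5.51 to 5.76 and whose centring stays unknown; these served as an alternative. Correlations with the matching array were at least 0.996, and with other arrays at most 0.989.

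Control spots and outlier-flagged spots were left out, spots of 1 probe were averaged, and log2 processed intensities were scaled by subtracting the 75th percentile per array. No spot was saturated. Probes were named through RefSeq accessions of GRCm38.p6 (26413 of 55681 matched). The test was the two-sided moderated fit (lmFit, eBayes) of limma 3.58.1, run in R 4.3.3 on 24214 probes and first tested on simulated data. A gene is its tested probe with the highest mean. The named genes are all 35 members; in each wider list up to 6 genes past the threshold, or the 2 with the smallest p; Mmp19; and markers beside a result. The members, lists and rules were chosen with earlier results of these data known. The arrays of slides 1, 2 and 3 deviated from their groups with correlations of 0.096, -0.021 and 0.21, so they were not treated as pairs, and slide as a block is an alternative. Others were normexp (offset 50, on median signals), 3 scalings, 2 filters, a trended robust prior, array weights, the mean of a gene's probes and leaving out each array.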

Additional observations from a re-analysis of the deposited data

How the results depend on the processing

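Of 17 alternatives, Ndrg1 passed in 10, and the count of the 34 genes past the threshold was 1 in all but the following. It was 0 with the filter on dim probes left out (adjusted p of Ndrg1 0.214), 0 with the replicate block, 4 with array weights (Aldoc, Egln1, Ndrg1 and Adm, adjusted p = 0.0414, 0.0443, 0.00495 and 0.0445 in limma), and 0 to 1 when 1 array was left out. Of the 34, 30 passed in no alternative, 24 kept their sign in all and 10 changed it in at least 1. Over all probes the count of 1124 became 633 with normexp, 113 with no filter, 650 with probes well above background on all arrays, 385 with the replicate block, 5068 with array weights and 107 to 1716 with 1 array left out. Over all genes 598 became 76 with no filter, 395 with probes well above background on all arrays, 224 with the replicate block, 2710 with array weights and 69 to 982 with 1 array left out. The 3 calls of the wider glucose metabolism list became 0, 1, 0, 9 and 0 to 3 under the same settings. Those of the wider HIF lists, also 3, became 0 with no filter, 0 with the replicate block, 12 with array weights and 0 to 4 with 1 array left out. Array weights estimated from 6 arrays are themselves uncertain. The difference between the glycolytic enzymes and other HIF targets ranged from -0.95 to -0.30 with 1 array left out. Scaling on detected probes shifted the median of all genes by -0.11 and the authors' values shifted it by -0.13. The replicate block changed the call of Ndrg1 and of no other of the 34 genes. The causes of these changes were not tested. Precision is limited by the 3 arrays per group, and for Car9 and Egln1 by signals near background.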
